A study of Rattus norvegicus with 26 samples.

Results

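The genes described here are 4 members of neuropeptide signalling in the aging rat hippocampus: Trhr, the receptor of thyrotropin-releasing hormone (TRH), Nmbr, the receptor of neuromedin B, Pnoc, the precursor of the peptide nociceptin (orphanin FQ), and Oprl1, the nociceptin receptor. They are 4 of the 14506 genes that have a probe set with a single gene symbol, and each of the 4 has 1 probe set: 10896394 for Trhr, 10701839 for Nmbr, 10784546 for Pnoc and 10843084 for Oprl1. The system was chosen by the log2 values of its genes by diet on these same arrays, so their differences between diets are given as a description. Where the members past a threshold in those contrasts are counted, the count stands beside that over all genes and supports nothing. The tail mark, the cages and the correlations among rats of 1 diet played no part in the choice and are tested. The size of the spread within diets is only described. Other genes of the same pathways are given from lists that were also drawn up with earlier results of these data known.

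The arrays came from 26 male Fisher 344 rats aged 18 months, with 1 array of hippocampal RNA for each rat. For several months from middle age they were fed a purified diet modified in its cholecalciferol (vitamin D3): the low diet held 100 IU per kg (8 rats), the control diet 1000 IU (9 rats) and the high diet 10000 IU (9 rats). The study asked whether the amount of the vitamin in the diet goes with altered hippocampal gene expression. Rats were housed in pairs told apart by a tail mark. The number in each array's description, which stands beside the mark, was taken as the cage. The labels do not say so in words, and every cage value below rests on it: on this reading 12 of the 14 cages had both rats measured. Serum levels of the vitamin were not analysed here.

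TRH is best known as the hypothalamic peptide that releases thyrotropin, but it also acts within the brain, where its receptor couples to Gq and phospholipase C. Neuromedin B belongs to the bombesin-like peptides, and its receptor also couples to Gq. Nociceptin is cut from its precursor and acts on an opioid-like receptor that couples to Gi/o proteins, opens GIRK potassium channels and inhibits calcium channels. In the rodent hippocampus nociceptin is known to dampen excitability and synaptic plasticity.

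All values are log2 probe set values, and all differences are on that log2 scale. A level cannot be set against that of another gene, because probe sets differ in their response. The median of all probe set means was 6.94, and the 8485 genes whose mean was at or above it were tested. All 4 members passed this filter, Pnoc and Trhr narrowly: their means over all arrays were 7.10 and 7.17, above only 2.64% and 3.74% of tested genes. Nmbr averaged 8.17 and Oprl1 8.44. Array medians ran from 6.92 to 6.96. Precision is limited by how many arrays there are. Of the fixed markers of hippocampal fields, 5 of 6 for CA1, 3 of 5 for CA3 and 2 of 6 for the dentate gyrus were measured and tested, as were 5 of 9 for neighbouring cortex and 3 of 6 for thalamus. The choroid plexus gene Ttr ranged from 6.69 to 12.9 among control rats. By array quality weights, the lowest were those of control rat 17 and low rat 7 (both 0.474), followed by high rat 19 (0.543), where an average array has a weight near 1. In tissue RNA, fewer cells of a type and less RNA per cell cannot be told apart.

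The receptor Trhr had its highest levels on the high diet, with a wide spread among those rats. On the low diet the lowest, median and highest rats had 6.85, 7.03 and 7.15. On control they had 6.93, 7.03 and 7.40, and on high 7.04, 7.45 and 7.92. Low and control overlapped, while 6 of 9 rats on high exceeded the top low-diet value and 5 of 9 the top control value. The means were 7.02 ± 0.10 (low, n = 8), 7.10 ± 0.17 (control, n = 9) and 7.38 ± 0.29 (high, n = 9), each with its SD. The SD on high exceeded that on either other diet, but the spreads were not compared by a test. High minus low was +0.36 (SE 0.092, a ratio of 1.28), high minus control +0.29 (SE 0.089) and low minus control -0.076 (SE 0.092). High rat 19 had the highest Trhr level of all rats, and without it high minus low was +0.29.

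The receptor Nmbr was also highest on the high diet, in a narrower range. The lowest, median and highest rats had 8.01, 8.11 and 8.24 on low, 8.02, 8.10 and 8.25 on control, and 8.01, 8.26 and 8.43 on high. On high, 7 of 9 rats lay above every low-diet rat and 6 of 9 above every control rat, but high rat 25 had the lowest level of all 26 rats. Means were 8.11 ± 0.091 on low, 8.11 ± 0.064 on control and 8.28 ± 0.13 on high. High minus low was +0.16 (SE 0.046, a ratio of 1.12) and high minus control +0.17 (SE 0.044), while low and control differed by 0.0034 (SE 0.046), within the spread of either diet. Without high rat 25 high minus low was +0.20.

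**Figure D1:**
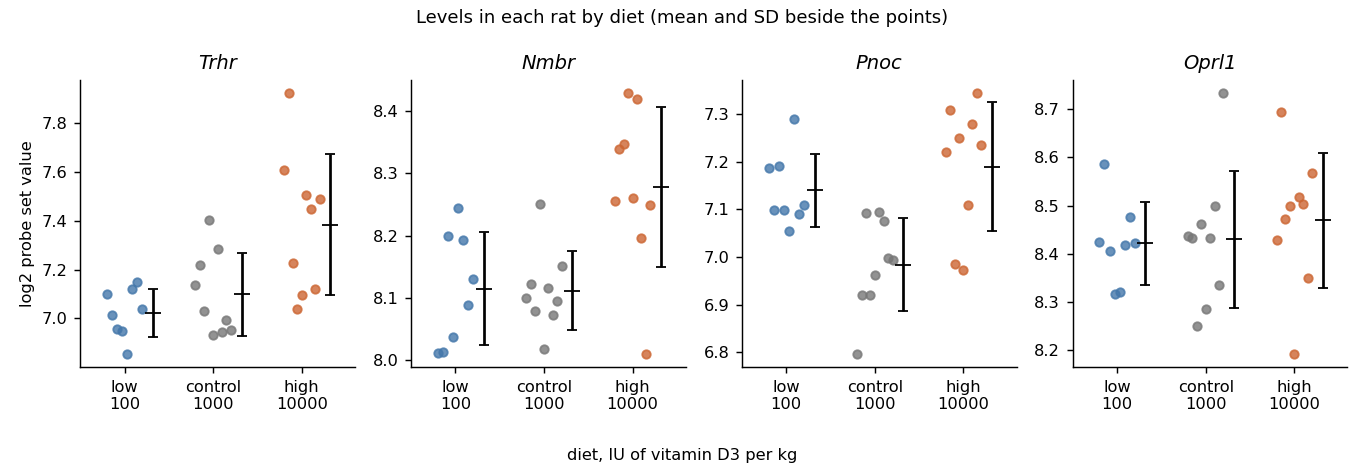
Log2 probe set values of Trhr, Nmbr, Pnoc and Oprl1 in each of 26 rats, by the amount of vitamin D3 in the diet (low, control and high, in IU per kg); each point is a rat, and the bar beside the points is the mean with the SD. Trhr and Nmbr are highest on high (means of 7.38 and 8.28), Pnoc is lowest on control (6.98), and the diets overlap for Oprl1.

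Pnoc, the nociceptin precursor, was not ordered by dose: control was the lowest diet. The lowest, median and highest rats had 7.05, 7.10 and 7.29 on low, 6.80, 6.99 and 7.09 on control, and 6.97, 7.24 and 7.34 on high. Of the low-diet rats 6 of 8 lay above every control rat, and of the high-diet rats 7 of 9 did, while low and high overlapped. Means were 7.14 ± 0.077, 6.98 ± 0.098 and 7.19 ± 0.14 on low, control and high. High minus control was +0.21 (SE 0.048, a ratio of 1.15) and low minus control +0.16 (SE 0.050). High minus low was +0.050 (SE 0.050), no larger than its error, and was +0.030 to +0.077 with 1 rat left out, the highest without high rat 22. The 2 comparisons with control share the same 9 control rats.

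Oprl1, the receptor of the Pnoc peptide, had nearly the same mean on every diet. The lowest, median and highest rats had 8.32, 8.42 and 8.59 on low, 8.25, 8.43 and 8.73 on control, and 8.19, 8.499 and 8.69 on high. No diet stood clear of another: only 1 of 9 rats on high exceeded the top low-diet value, and 0 of 9 the top control value. Means were 8.42 ± 0.086, 8.43 ± 0.14 and 8.47 ± 0.14 on low, control and high. High minus low was +0.048 (95% interval -0.071 to 0.17), high minus control +0.039 (-0.075 to 0.15) and low minus control -0.0083 (-0.13 to 0.11). These intervals hold differences of up to about the size seen for Nmbr. Control rat 17 had the highest Oprl1 level of all rats (8.73) and high rat 22 the lowest (8.19). High minus low was +0.020 without high rat 19 and +0.082 without high rat 22, and high minus control was +0.011 without high rat 19 and +0.077 without control rat 17.

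**Figure D2:**
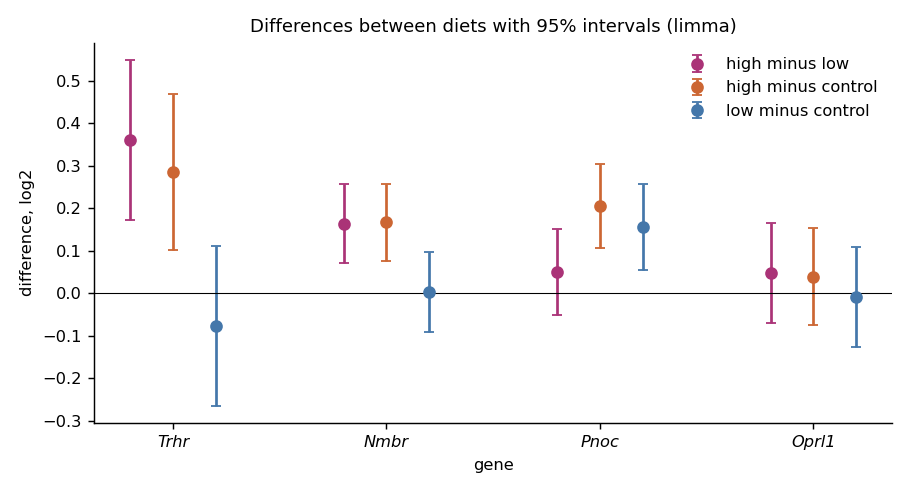
Differences between diets (log2) for each gene with 95% intervals from limma, in the order high minus low, then high minus control, then low minus control. Trhr and Nmbr have intervals above 0 in both comparisons of high, Pnoc in both comparisons with control, and all 3 intervals of Oprl1 span 0; the genes were chosen with such differences known.

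Across all 8485 tested genes, limma called 0 genes at an adjusted p under 0.17 in any of the 3 contrasts between diets or in the F-test over diets (0% of tested genes in each), and so 0 of the 4 members. The threshold is the stricter of those named in the series design. At an unadjusted p under 0.05, high minus low held Trhr and Nmbr, against 7.22% of all genes. High minus control held Trhr, Nmbr and Pnoc, all higher on high, against 4.63% of all genes (2.18% higher and 2.45% lower). Low minus control held Pnoc, higher on low, against 2.27% (0.66% higher and 1.61% lower). The F-test held Trhr, Nmbr and Pnoc, against 4.62%. The members were chosen with these contrasts known, so nothing is read from their shares. The smallest adjusted p over all genes was 0.286 for high minus low and 0.921 for high minus control.

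The partners of the members in their own peptide systems were then read from lists that do not include the 4 members. In the TRH system, Trh itself was below the intensity filter, with means of 6.15, 6.16 and 6.13 on low, control and high. Trhde, the ectoenzyme that degrades TRH, differed by -0.066 (SE 0.055) between high and low and by -0.024 between high and control. Pgpep1, a pyroglutamyl peptidase that can also act on TRH, differed by -0.047 and -0.083 (unadjusted p = 0.00758 for high minus control). Trhr thus had a higher mean on high than on either other diet, while its 2 tested partners had lower means, and none of these partners passed the adjusted threshold.

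In the bombesin-like system, Nmb, the ligand of Nmbr, had means of 8.13, 8.17 and 8.05 on low, control and high, a high minus low difference of -0.072 (SE 0.098). Grp, the gastrin-releasing peptide gene, had 6.99, 7.19 and 7.85 as the lowest, median and highest of high-diet rats, against 6.79, 6.88 and 7.14 on low. Its means were 7.23 ± 0.25 on high and 6.91 ± 0.12 on low, a difference of +0.32 (SE 0.11), the largest among the tested genes of the 3 peptide systems when the 4 members are left aside. The control diet lay between (7.08 ± 0.33), with control rat 17 at the top of all rats (7.91). Grp did not pass in limma (adjusted p = 0.674, unadjusted p = 0.00815). Grpr, the Grp receptor, differed by +0.014 (SE 0.053), and Brs3, a related receptor, was below the filter.

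In the nociceptin and opioid system, Penk, the enkephalin precursor, averaged 9.01 ± 0.11 on high and 8.90 ± 0.12 on low, a difference of +0.12 (SE 0.048, unadjusted p = 0.0232). Oprm1, the mu opioid receptor, averaged 8.10 ± 0.11 on high and 8.01 ± 0.078 on control, a difference of +0.090 (SE 0.037, unadjusted p = 0.0231). Pdyn, the dynorphin precursor, differed by -0.037 between high and low. Neither Penk nor Oprm1 passed over all genes, and Pomc, Oprd1 and Oprk1 were below the filter.

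In the wider neuropeptide lists more genes had a higher than a lower mean on the high diet, with no gene past the adjusted threshold. The lists were drawn up with earlier results of these data known, so nothing is read from their counts. Over the peptide systems and 5 pathway lists, 71 of 129 genes were tested. In high minus low, 49 of the 71 had a higher mean, against 55.2% of all tested genes, and the median difference was +0.023, against +0.0053 over all tested genes. At an unadjusted p under 0.05 there were 9 higher and 2 lower, where 4.50% of all tested genes were higher and 2.72% lower. In high minus control 44 of 71 had a higher mean, against 50.6% of all tested genes. In that contrast 4 were higher and 1 lower at an unadjusted p under 0.05 in limma. Of all tested genes 2.18% were higher and 2.45% lower there. In high minus low, the test without moderation and limma each gave 11 genes at an unadjusted p under 0.05 and called 0 at the adjusted threshold. With arrays centred on their medians, 53 of 71 were higher in high minus low, against 61.5% of all tested genes, and 53 of 71 in high minus control, against 65.1%.

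**Figure D3:**
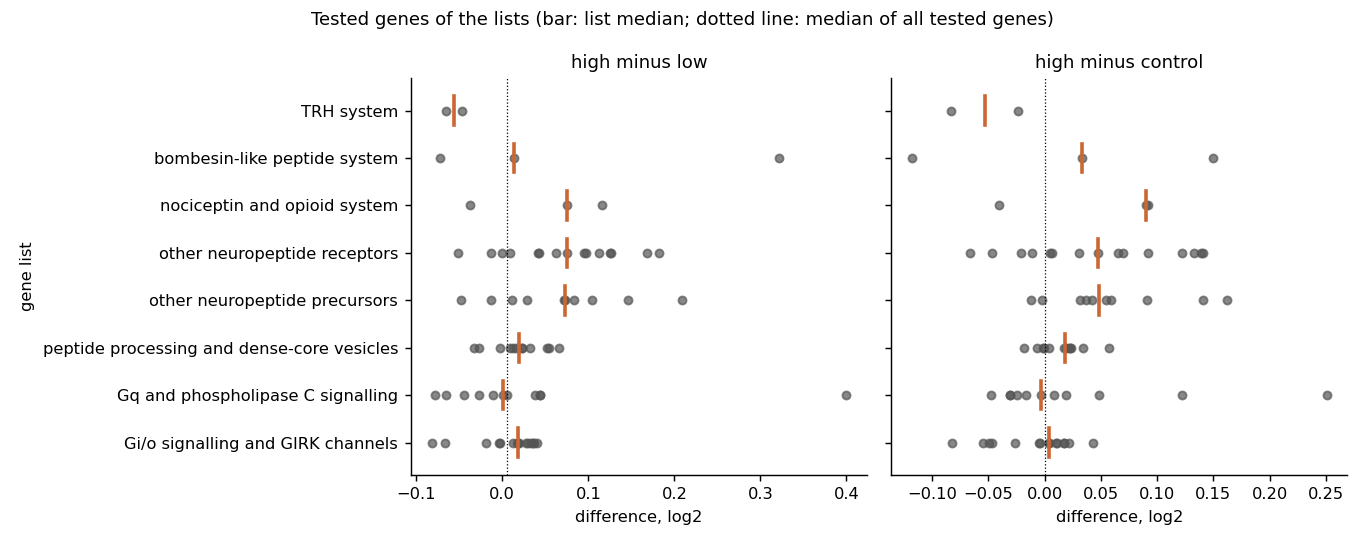
Differences (log2) of the tested genes of each peptide system and pathway list, without the 4 members, for high minus low and high minus control; each point is a gene, the bar is the list median and the dotted line the median of all tested genes. In high minus low the other neuropeptide receptors have a median of +0.075 and the other precursors of +0.072, against +0.0053 over all tested genes, and the point far right in the Gq list is Rgs4.

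Among the other neuropeptide receptors, 15 of 44 were tested, and 12 of the 15 had a higher mean on high than on low, against 55.2% of all tested genes. Their median difference from low was +0.075. Npy2r, a neuropeptide Y receptor, averaged 9.30 ± 0.099 on high and 9.12 ± 0.14 on low (+0.18, SE 0.070). Sstr2, a somatostatin receptor, averaged 9.17 ± 0.075 on high and 9.08 ± 0.064 on low (+0.097, SE 0.039), with 5 of 9 high-diet rats above every low-diet rat. Tacr1, the substance P receptor, differed by +0.11 (SE 0.051). Against control, the somatostatin receptor Sstr3 differed by +0.13, the melanin-concentrating hormone receptor Mchr1 by +0.14 and Tacr1 by +0.092. At an unadjusted p under 0.05 in limma there were 4 receptors in high minus low and 2 in high minus control, all higher on high. Of all tested genes 4.50% and 2.18% were higher at that threshold in these contrasts. The list was drawn up with earlier results of these data known, so nothing is read from these shares. Of the receptors 0 passed the adjusted threshold in limma or without moderation.

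Of the other peptide precursors, 10 of 26 were tested and 8 had a higher mean on high than on low, against 55.2% of all tested genes. The median difference from low was +0.072. Sst, the somatostatin gene, differed by +0.073 (SE 0.041), Npy by +0.083 (SE 0.047) and Nxph1, a secreted neurexin ligand, by +0.072 (SE 0.034). Against control, Npb, the neuropeptide B gene, differed by +0.091, Nts, the neurotensin gene, by +0.16 (SE 0.13) and Nxph1 by +0.059. In peptide processing and dense-core vesicles, 9 of 12 tested genes had a higher mean on high, by little: Cadps, which primes dense-core vesicles for release, differed by +0.054, the granin Scg3 by +0.052 and Vgf by +0.066.

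For genes downstream of the receptors, the list medians of high minus low lay nearer to that of all tested genes (+0.0053) than those of the other receptors and precursors did. The Gi/o median was close to that of peptide processing and dense-core vesicles (+0.019). In the Gq and phospholipase C list, which serves Trhr and Nmbr, 6 of 11 tested genes had a higher mean on high than low did, and the median difference was +0.00054. The inositol trisphosphate receptor genes Itpr1 and Itpr2 differed by -0.078 and -0.065, and Rgs4, a regulator that shortens G-protein signals, by +0.40 (SE 0.20). Against control, the G-protein genes Gna14 and Gnaq differed by +0.12 and +0.049, and Itpr1 by -0.048. In the Gi/o list, which serves Oprl1, 10 of 15 were higher, with a median of +0.018. The GIRK subunit gene Kcnj6 differed by -0.082, the adenylyl cyclase gene Adcy1 by -0.066 and the G-protein gene Gnai2 by +0.034, and against control Arrb1 differed by -0.050, Kcnj9 by -0.083 and Adcy1 by -0.055. Of both lists 0 genes passed the adjusted threshold in limma in any contrast between diets.

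Some lists of markers of tissue parts and cell types also differed in their means between high and low. Of all tested genes 55.2% had a higher mean on high than on low. All 5 tested cortex markers had a higher mean on high (median difference from low +0.096), and the mean of the list per rat ranged from 10.46 to 10.70 on high and from 10.48 to 10.59 on low. All 10 tested endothelial and mural markers had a lower mean on high (median -0.080), with list means per rat of 8.21 to 8.34 on high and 8.24 to 8.41 on low. Of the interneuron markers 7 of 9 were higher, with list means of 9.66 to 9.80 on high and 9.61 to 9.70 on low. Their median difference from low (+0.073) is that of Sst, also given above among the precursors, so the 2 lists are not separate. Of the CA1 markers 4 of 5 had a lower mean on high (median -0.081), with list means of 10.46 to 10.92 on high and 10.77 to 10.97 on low. Of the thalamus markers 2 of 3 had a higher mean (median +0.10), with list means of 7.11 to 7.67 on high and 7.06 to 7.36 on low, and of the subiculum markers 2 of 3 (median +0.21), with list means of 7.98 to 8.60 on high and 7.85 to 8.41 on low. The 3 subiculum markers did not move together: at an unadjusted p under 0.05 in limma 1 was higher and 1 lower, where 4.50% and 2.72% of all tested genes were. Against control the subiculum median was the value of Nts (+0.16, SE 0.13), given above among the precursors. Median differences from low were smaller for the astrocyte (+0.0071), oligodendrocyte (-0.0045), microglia (-0.025), CA3 (-0.027) and dentate gyrus (-0.034) markers. Ttr, the only tested choroid plexus marker, differed by -0.28 with a wide spread among rats. No marker passed the adjusted threshold. The part of these markers in the differences of Trhr, Nmbr and Grp was not tested.

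The tail mark is a comparison that played no role in the choice of the genes. Trhr averaged 7.19 ± 0.21 in marked and 7.16 ± 0.30 in unmarked rats (SD, n = 13 each), with a difference of +0.0077 (SE 0.076) once diet was in the model. Nmbr differed by -0.015 (SE 0.038) and Pnoc by -0.029 (SE 0.041). Oprl1 averaged 8.40 ± 0.084 in marked and 8.48 ± 0.15 in unmarked rats, a difference of -0.080 (SE 0.045, 95% interval -0.17 to 0.013). In limma 0 of the 4 genes passed (adjusted p = 0.992, 0.982, 0.965 and 0.909 in the order above), as 0% of all tested genes did. At an unadjusted p under 0.05 there were 0 of the 4, against 5.32% of all genes. Whether the mark difference varied with diet was tested after the data were seen. In the high-diet cages with both rats measured, Nmbr was lower in the marked rat by 0.083, 0.082, 0.16 and 0.24. The differences by diet and the interaction test came from a fit over all rats without a cage term. That fit takes in rats with no measured cage mate, and its errors do not use the pairing. For Nmbr the difference was +0.043 on low, +0.062 on control and -0.15 (SE 0.058) on high. For Trhr it was -0.015 on low, +0.23 (SE 0.12) on control, where the marked rat was higher in 4 of 4 cages, and -0.19 (SE 0.12) on high, so its difference over all diets averages opposite signs. For Oprl1 it was -0.029 on low, -0.025 on control and -0.18 (SE 0.076) on high. The interaction test in limma called 0 of the 4 genes (adjusted p = 1.00 for each), against 0.0118% of all genes. At an unadjusted p under 0.05 it held Nmbr (unadjusted p = 0.0358), against 3.31% of all genes.

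**Figure D4:**
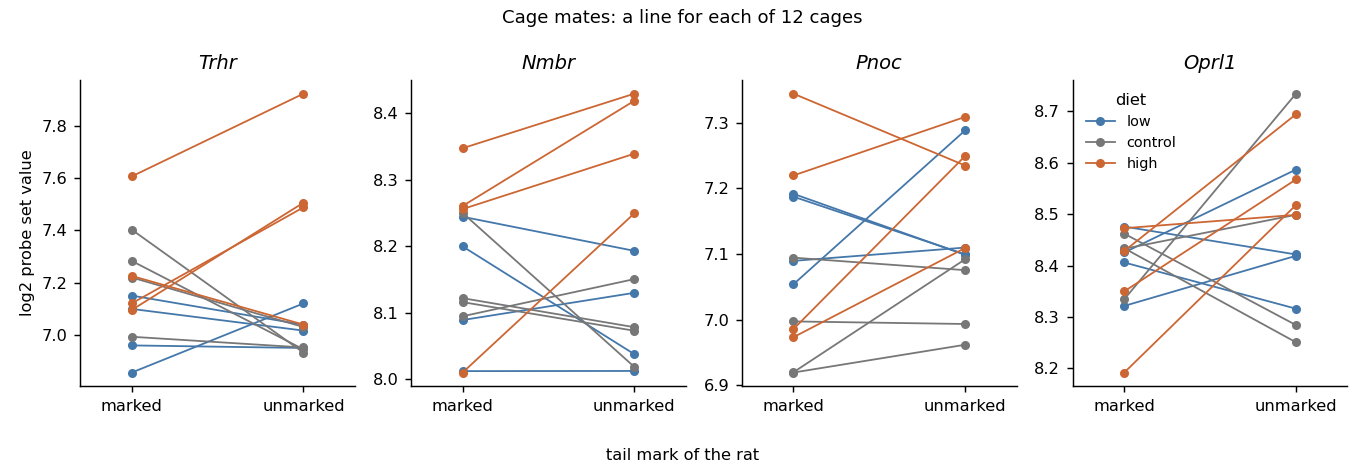
Log2 values of the marked and the unmarked rat of each of 12 cages, with a line for each cage coloured by diet. In the high-diet cages the marked rat has the lower Nmbr and Oprl1 value in 4 of 4 cages; over all cages Trhr is higher in the marked rat in 8 of 12 and Oprl1 in 4 of 12.

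Cage mates differed about as much as other rats of 1 diet did. The mean absolute difference between cage mates in Trhr was 0.23 over 12 cages, and 0.23 over 88 pairs of rats from different cages of 1 diet. For Nmbr it was 0.099 between cage mates and 0.11 between other rats, for Pnoc 0.11 and 0.12, and for Oprl1 0.17 and 0.14. The moderated F-test of cages within diets in limma called 0 of the 4 genes (adjusted p = 0.514 for Trhr, 0.497 for Nmbr, 0.436 for Pnoc and 0.878 for Oprl1), while it called 5.59% of all tested genes. At an unadjusted p under 0.05 it held 0 of the 4, against 15% of all genes.

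Pooled over the 3 diets, the spread of Trhr within diets was wider than that of most genes. Its pooled SD within diets was 0.21, larger than that of 98.8% of tested genes and of 96.8% of the 1000 tested genes nearest to it in level. By diet the SD of Trhr was 0.10 on low, 0.17 on control and 0.29 on high, so the high diet weighs most in it. The pooled SD was 0.13 for Oprl1, above 91.6% of tested genes and 87.1% of the 1000 genes nearest in level. It was 0.11 for Pnoc, above 83.0% of tested genes but only 60.6% of those of like level, and 0.098 for Nmbr, above 76.0% and 59%. The median SD of all tested genes was 0.076.

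After removal of the diet means, each member was compared with the others and with the mean of 6 marker lists over 26 rats, 30 relations in all. Among the members 0 of 6 relations passed an adjusted p under 0.05. The highest was that of Trhr with Oprl1 (Pearson r = 0.443, permutation p = 0.045, adjusted p = 0.150; Spearman rho = 0.428, permutation p = 0.043; with the 2 rats farthest out on the x axis left out, r = 0.557). Pnoc and its receptor Oprl1 gave r = 0.200 (permutation p = 0.379, adjusted p = 0.541; rho = 0.039, permutation p = 0.860; with the 2 rats farthest out on the x axis left out, r = -0.00074). Pnoc and the interneuron markers gave r = 0.329 (permutation p = 0.134, adjusted p = 0.365; rho = 0.278, permutation p = 0.193; with the 2 rats farthest out on the x axis left out, r = 0.295).

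Nmbr varied with the cortex markers. Pearson r was 0.705 (permutation p = 0.00017, adjusted p = 0.00255) and Spearman rho 0.614 (permutation p = 0.00089, adjusted p = 0.0267). Within low r was 0.678, within control 0.769 and within high 0.725. Without the 2 rats farthest from the median of the score r was 0.506. High rat 25, which had the lowest Nmbr level, also had the lowest cortex marker mean of the high-diet rats (10.46). The score holds Fezf2, Nr4a2, Etv1, Trib2 and Tle4, genes that are expressed in cortical neurons. The permutations treat the 2 rats of a cage as independent. With 1 mean for each of the 14 cages r was 0.397 and rho 0.103 (permutation p = 0.336 and 0.762, adjusted p of r = 0.627).

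**Figure D5:**
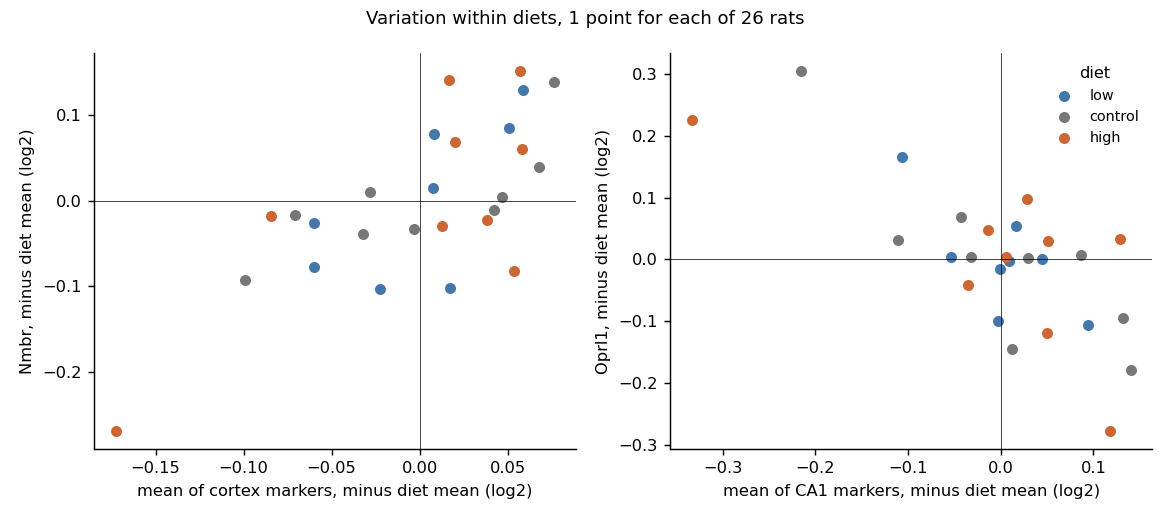
Values of each of 26 rats after removal of the diet mean (log2). The left panel sets Nmbr against the mean of 5 cortex markers (r = 0.705), and the right panel sets Oprl1 against the mean of 5 CA1 markers (r = -0.750); points are coloured by diet.

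Oprl1 varied against the CA1 markers. Pearson r was -0.750 (permutation p = 5e-05, adjusted p = 0.0015). Spearman rho was -0.558 (permutation p = 0.00544, adjusted p = 0.0618), so by rank the relation did not pass. Within low r was -0.735, within control -0.845 and within high -0.682. Without the 2 rats farthest from the median of the score, which are control rat 17 and high rat 19, r was -0.577. Over cage means r was -0.486 and rho -0.525 (permutation p = 0.117 and 0.0834, adjusted p of r = 0.627). The score holds Wfs1, Fibcd1, Pou3f1, Mpped1 and Zbtb20, the tested genes of the CA1 list. Whether each is particular to CA1 pyramidal neurons was not tested. Oprl1 also varied with the thalamus markers (Pearson r = 0.604, permutation p = 0.00234, adjusted p = 0.0234). Spearman rho was 0.549 (permutation p = 0.00618, adjusted p = 0.0618), which did not pass. Within low r was 0.248, within control 0.801 and within high 0.650. With the 2 rats farthest out on the x axis left out, r was 0.495. Of the thalamus list only Slc17a6, Prkcd and Rgs16 were tested, of which Slc17a6 is also on the subiculum list. Over cage means r of Oprl1 with the thalamus markers was 0.620 and rho 0.736 (permutation p = 0.0132 and 0.00334, adjusted p of r = 0.374). Control rat 17 and high rat 19, which have low array weights, had the highest 2 Oprl1 values. Without both, a step added after the data were seen, r was -0.568 with CA1 (permutation p = 0.00396, adjusted p = 0.0594) and 0.388 with thalamus (permutation p = 0.0917, adjusted p = 0.344), so neither passed. For CA1 this drops the same 2 rats as above, with diet means taken anew, and is not a separate check. Without both rats the relation of Nmbr with cortex did pass (r = 0.700, permutation p = 0.00057, adjusted p = 0.0171). Trhr gave r = -0.509 with CA1 (permutation p = 0.0255, adjusted p = 0.109; rho = -0.374, permutation p = 0.076; with the 2 rats farthest out on the x axis left out, r = -0.405), which did not pass.

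The genes nearest to each member in this variation within diets are given as a description over 26 rats that share their arrays. They have the highest of 8484 r values for each member, so they are extremes by choice, and genes of negative r are not named. The lowest r was -0.791 for Trhr, larger in size than its highest. It was -0.769 for Oprl1, -0.666 for Nmbr and -0.662 for Pnoc. Nearest to Oprl1 were Kcnt1, a sodium-activated potassium channel gene, at 0.842, then Mest, Plcxd3, Ank1 and the adrenergic receptor gene Adra2a at 0.801 to 0.840, where the median r over all other genes was -0.050. Nearest to Nmbr was Nr4a2, a nuclear receptor gene, at 0.781, then Bcl2, Taf7, Vsnl1 and Elavl4 at 0.631 to 0.679. Nr4a2 is itself part of the cortex score, so its r is not separate from the relation of Nmbr with that score. The score without Nr4a2 was not tested. Nearest to Trhr were Mrps15 (0.728), Prrx1 (0.726), the mu opioid receptor gene Oprm1 (0.720), Grip1 (0.698), whose protein binds AMPA receptors, and the activin-type receptor gene Acvr1c (0.690). Nearest to Pnoc were Sbno2 (0.763), Slc38a6 (0.708), Scoc (0.666), Lipogenin (0.632) and Exoc5 (0.632). For Trhr, the likeness of Mrps15 and Prrx1 was uneven over diets, at 0.926 and 0.941 within high but 0.279 and 0.170 within control, whereas Grip1 stood at 0.614, 0.868 and 0.730 within low, control and high. Neighbours of Pnoc were uneven too. In the same order Lipogenin, whose mean of 6.95 lies at the filter, stood at -0.224, 0.705 and 0.917, and Slc38a6 at 0.178, 0.877 and 0.839. Scoc stood at 0.729, 0.276 and 0.818, whereas Sbno2 stood at 0.687, 0.685 and 0.909.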

How the data were processed

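The authors deposited log2 values per probe set from Affymetrix Rat Gene 1.0 ST arrays, with 29214 probe sets, 26 arrays and 0 missing values. Partek 6.6 and GCRMA are the tools listed, without their roles, per the submitters' processing notes, and the genome build is not given in the sources used here. RNA was extracted with TRIzol, per the labels' protocols. Of the probe sets, 15310 had 1 gene symbol in the platform annotation, 323 several and 13581 none, and 15279 of those with 1 symbol matched RefSeq (assembly GRCr8). The probe set with the highest mean stood for a gene, and genes with a mean at or above 6.94 were tested.

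Limma 3.58.1 in R 4.3.3 was fitted over all 26 arrays with diet as a factor, with the tail mark added for marked minus unmarked and cages nested in diet for the cage test. Tests were 2-sided and adjusted by the Benjamini-Hochberg method over 8485 genes. The number in each array's description was taken as the cage, which the labels do not state in words. Correlations used 100000 permutations within diets in Python 3.11.15, adjusted over the 30 relations. The members and the 20 gene lists were chosen with earlier results of these data known. Named were the members, the genes of the 3 peptide systems, the 3 genes of smallest p per pathway list in high minus low and in high minus control, and the 5 genes of highest r per member. Removal of values over 2 SD from the diet mean, which the series design describes, was run as an alternative, as were other scalings, filters, array weights, a cage block and each rat left out. The procedure was tested on simulated data.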

Additional observations from a re-analysis of the deposited data

How the results depend on the processing

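No paired analysis of the diets was possible because each diet was fed to different rats. Cage mates do pair marked with unmarked rats, and with cage as a random block 0 of the 4 genes passed in that comparison. The differences of the 4 genes between diets kept their direction with quantile normalization, median centring of arrays, a random cage block, quality weights for arrays, tail mark in the model, values beyond 2 SD of the diet mean dropped, and each rat left out in turn, except low minus control of Nmbr (-0.015 to 0.021) and of Oprl1 (-0.032 to 0.030), which changed sign in 6 of 33 settings each. High minus low of Trhr lay between +0.29 and +0.40 with 1 rat left out. With a stricter intensity filter at 9.20 none of the 4 genes was tested. None of the genes has another probe set, so that alternative could not be run, and the cage test was not run with values removed or with cage as a block. The count of pathway genes called was 0 in each contrast and in the F-test, and with values over 2 SD removed it was 1 in high minus low and 1 in the F-test, in both cases Grp (limma, adjusted p = 0.088 and 0.150), after control rat 17 and high rat 19 were dropped for that gene. With 1 rat left out this count ranged from 0 to 0. Over all genes that removal called 30 in high minus low, 14 in high minus control and 17 in the F-test, where the fit without it called 0. Without high rat 25 there were 3, 1 and 3 calls. Trhr, Nmbr or Pnoc are among these calls, which supports nothing: they were chosen on these contrasts, removing extreme values narrows the spread within diets by construction, and high rat 25 holds the lowest Nmbr value. Of the 30 relations within diets, 3 passed over rats by Pearson r, 0 over the means of the 14 cages and 1 without control rat 17 and high rat 19. By Spearman rho over rats, that of Nmbr with cortex passed (permutation test, adjusted p = 0.0267), while those of Oprl1 with CA1 and with thalamus did not (adjusted p = 0.0618 for each). The cause was not tested.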
